A study of Mus musculus with 2 samples.

Results

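The UDP-glycosyltransferase genes Ugt1a1, Ugt2a3, Ugt2b1, Ugt2b5, Ugt2b34, Ugt2b35, Ugt2b36, Ugt3a1 and Ugt3a2, and Ugdh, which encodes UDP-glucose dehydrogenase, were followed in mouse liver. These 10 genes were taken by name from the RefSeq accessions of the deposited tables, 1 accession for each gene, out of 26440 genes in all. Liver RNA of BALB/c mice was sequenced at day 11 after birth in 1 library labelled SRSF2-/-, from mice described as lacking SRSF2 in the liver alone, and in 1 WT library. The sources used here do not give the part of the gene that was removed, the driver of the deletion, the sex of the animals or the number of livers in each library. Each genotype has 1 library and no replicate, and no difference was tested against the spread between animals. Every value describes these 2 libraries.

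UDP-glycosyltransferases (UGTs) sit in the endoplasmic reticulum membrane, with the active site facing the lumen, and join a sugar to small fat-soluble molecules so that they can leave in bile or urine. Members of the UGT1A and UGT2 families use UDP-glucuronate, which Ugdh makes in the cytosol by oxidising UDP-glucose. UGT1A1 is the enzyme that conjugates bilirubin, and UGT2 enzymes act on steroids, bile acids and drugs. In human, UGT3A enzymes use other UDP-sugars, such as UDP-N-acetylglucosamine, in place of UDP-glucuronate. Hepatocytes are the main site of these reactions, and most UGT genes come on around birth.

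The libraries held 22111605 reads (SRSF2-/-) and 22407743 reads (WT) on annotated transcripts. Srsf2, the targeted gene, had 832 reads in the SRSF2-/- library and 1998 in the WT library, or 11.8 and 27.9 FPKM. FPKM are fragments per kilobase of transcript, scaled to sequencing depth, as deposited. Srsf2 thus kept 42.1% of its WT value in the SRSF2-/- library (95% interval 38.8 to 45.7%). Intervals given with a ratio are 95% Clopper-Pearson intervals, exact for the reads, and cover counting error only. The libraries also differed in sex-linked transcripts and in transcripts of pancreas and muscle. Xist had 6 reads in the SRSF2-/- and 13004 in the WT library, and each of 4 Y-linked genes had between 277 and 859 reads in the SRSF2-/- library and 0 or 1 read in the WT library. Sex and genotype therefore cannot be told apart here. Summed levels of 6 exocrine pancreas markers were 499.9 and 0.612 FPKM, and of 6 skeletal muscle markers 72.1 and 0.158 FPKM, in the SRSF2-/- and WT libraries. All 5 tested genes of each of these lists were at least 2-fold higher, and 3 muscle markers were at 0 reads in the WT library.

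Most UGT transcripts were lower in the SRSF2-/- liver, while Ugdh was far higher. By the size rule used throughout, a log2((SRSF2-/- FPKM + 1) / (WT FPKM + 1)) at or past 1 in either direction, 5 of the 10 members were at least 2-fold lower and 1 was at least 2-fold higher. Over the 12477 genes with at least 1 FPKM in either library, 2.95% were at least 2-fold lower and 19.2% at least 2-fold higher. All 10 members passed that filter. The log2 ratios of the members had a median of -1.0, and those of all genes a median of 0.55, and 84.5% of genes had a higher value in the SRSF2-/- library. The 20 most abundant transcripts took 21.5% of the reads in the SRSF2-/- library and 37.5% in the WT library. When the log2 ratios were centred on that median, 7 members were at least 2-fold lower and 1 higher, against 6.66% and 5.67% of all genes. Ugt1a1 and Ugt2b1 were the members added by centring.

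**Figure D1:**
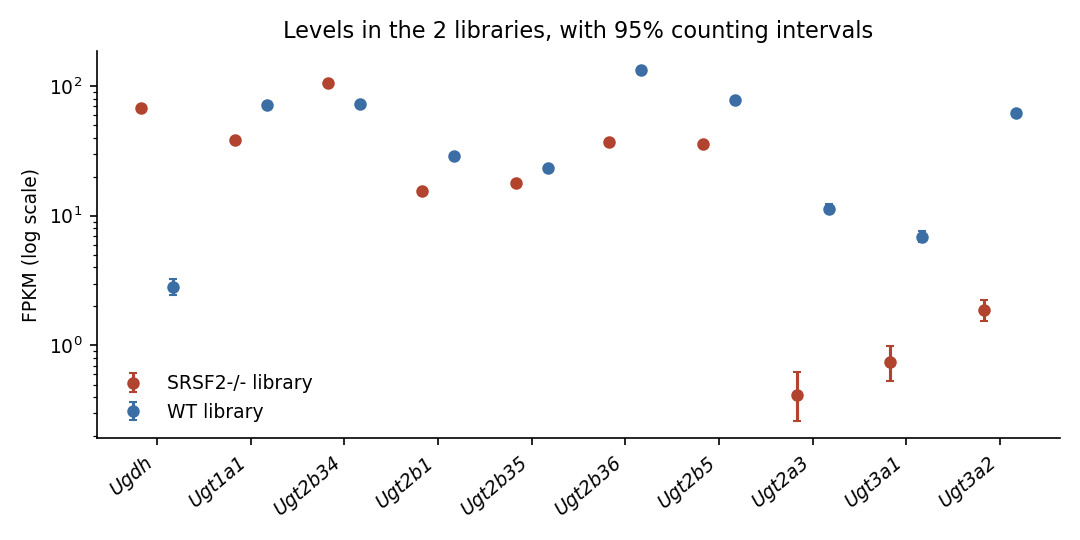
FPKM of the 10 members on a log axis, with the SRSF2-/- library to the left of the WT library for each gene. Bars are exact 95% Poisson intervals of the read count. Ugdh and Ugt2b34 are higher in the SRSF2-/- library, and the other 8 members are lower, with Ugt2a3 and Ugt3a1 under 1 FPKM there.

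Ugdh, the source of UDP-glucuronate, had 4322 reads and 67.5 FPKM in the SRSF2-/- library, against 183 reads and 2.82 FPKM in the WT library. The level was 23.9-fold higher (20.6 to 27.9) in the SRSF2-/- library. Among the members it was the lowest in the WT library and the second highest in the SRSF2-/- library. Of all genes tested, 30 had a higher log2 ratio than the 4.16 of Ugdh. Set against the summed level of the 9 UGT members, Ugdh stood at 26.6 FPKM per 100 FPKM of UGT transcript in the SRSF2-/- library and at 0.578 in the WT library. That sum includes the Ugt3a members, at 2.61 and 68.8 FPKM in the SRSF2-/- and WT libraries, whose human counterparts use other UDP-sugars. UDP-glucuronate also feeds the synthesis of glycosaminoglycans and, in mouse, of ascorbate, so the Ugdh transcript is not tied to the UGTs alone. Promoters from RefSeq (build GRCm38.p6) were available for 9 members, all but Ugt3a2, and each one printed here is the 250 bases before the annotated start, on the gene's strand, with motif matches in capitals. That of Ugdh is shown for the response element cores described further on.
Ugdh (chr5:65435843-65436092, - strand): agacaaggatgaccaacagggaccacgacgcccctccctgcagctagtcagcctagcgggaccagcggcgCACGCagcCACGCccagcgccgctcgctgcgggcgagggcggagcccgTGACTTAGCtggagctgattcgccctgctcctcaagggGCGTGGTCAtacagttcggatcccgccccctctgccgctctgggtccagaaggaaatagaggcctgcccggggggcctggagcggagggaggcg

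Ugt1a1, the bilirubin-conjugating enzyme, stood at 38.4 FPKM in the SRSF2-/- library and 71.7 FPKM in the WT library, from 3250 and 6137 reads. It was 1.87-fold lower (1.79 to 1.95), and its log2 ratio of -0.88 lay just short of the size rule. The genes of the Ugt1a locus on chromosome 1 each have a first exon of their own and share the exons that follow. Of the 50-base words in the Ugt1a1 transcript, 58.2% also stand in another Ugt1a transcript. The sources used here do not say how reads on shared exons were counted. The deposited reads of Ugt1a2, Ugt1a5, Ugt1a7c, Ugt1a9 and Ugt1a10 lay within 527 to 578 in the SRSF2-/- library and within 870 to 912 in the WT library, which is a nearly level row for 5 different genes. Ugt1a6a had 844 and 1138 reads and Ugt1a6b had 992 and 1223 reads in the SRSF2-/- and WT libraries, above that level in both. The promoter of Ugt1a1 is shown for its HNF1 site.
Ugt1a1 (chr1:88211709-88211958, + strand): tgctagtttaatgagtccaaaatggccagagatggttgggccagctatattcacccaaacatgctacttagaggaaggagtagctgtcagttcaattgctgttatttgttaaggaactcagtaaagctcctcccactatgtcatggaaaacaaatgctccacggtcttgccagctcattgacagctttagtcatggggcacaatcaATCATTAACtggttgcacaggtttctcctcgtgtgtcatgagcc

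Of the 8 accessions of the locus Ugt1a1 had the most reads, 2723 above the lowest accession in the SRSF2-/- library and 5267 above it in the WT library.

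**Figure D2:**
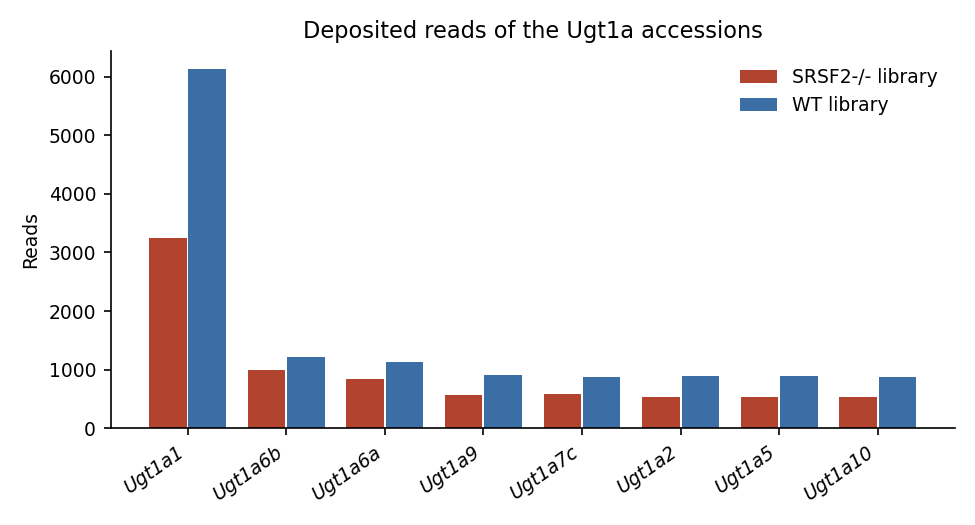
Deposited reads of the 8 accessions of the Ugt1a locus, with the SRSF2-/- library to the left of the WT library for each. Ugt1a1 stands at 3250 and 6137 reads, and 5 accessions share a level of 527 to 578 and 870 to 912 reads.

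The Ugt2 genes lie side by side on chromosome 5, and the 6 members among them did not move together. Ugt2b36 stood at 37.2 FPKM in the SRSF2-/- library, against 134 FPKM in the WT library, where it was the most abundant of the 9. It was 3.59-fold lower (3.41 to 3.78). Its neighbour Ugt2b5 stood at 35.5 FPKM in the SRSF2-/- library and 78.4 FPKM in the WT library, 2.21-fold lower (2.09 to 2.34). These genes encode UGT2B enzymes of the steroid- and drug-conjugating subfamily. Ugt2b1, of the same subfamily, was at 15.5 FPKM in the SRSF2-/- library and 28.7 FPKM in the WT library, 1.85-fold lower (1.72 to 2.002). Ugt2b35 was at 17.8 and 23.3 FPKM in the SRSF2-/- and WT libraries, 1.31-fold lower (1.23 to 1.40). Neither Ugt2b1 nor Ugt2b35 met the size rule as deposited. Only Ugt2b34 among the UGT members was higher in the SRSF2-/- library, at 106 FPKM, against 72.6 FPKM in the WT library. That is a ratio of 1.46 (1.41 to 1.51) and a log2 ratio of 0.54, which is -0.01 relative to the median of all genes. Its direction as deposited is therefore the direction of most genes in these libraries, and it disappears on centring. The promoters of Ugt2b36 and Ugt2b5, lower side by side, are shown with that of Ugt2b34, the member of the subfamily with the highest ratio.
Ugt2b36 (chr5:87092556-87092805, - strand): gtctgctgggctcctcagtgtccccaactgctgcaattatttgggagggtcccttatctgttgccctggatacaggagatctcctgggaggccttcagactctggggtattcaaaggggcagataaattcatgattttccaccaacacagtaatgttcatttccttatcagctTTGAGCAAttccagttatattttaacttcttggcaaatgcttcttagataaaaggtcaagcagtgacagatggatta
Ugt2b5 (chr5:87140341-87140590, - strand): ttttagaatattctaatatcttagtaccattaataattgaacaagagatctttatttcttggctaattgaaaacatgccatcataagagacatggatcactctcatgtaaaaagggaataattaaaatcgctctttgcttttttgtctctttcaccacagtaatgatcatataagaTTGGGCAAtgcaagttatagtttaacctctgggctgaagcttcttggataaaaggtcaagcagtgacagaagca
Ugt2b34 (chr5:86906938-86907187, - strand): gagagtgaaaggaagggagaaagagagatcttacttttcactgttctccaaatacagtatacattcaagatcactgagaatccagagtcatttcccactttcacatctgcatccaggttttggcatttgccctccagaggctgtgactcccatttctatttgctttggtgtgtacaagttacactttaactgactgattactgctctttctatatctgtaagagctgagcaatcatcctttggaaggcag

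Ugt2a3 lies between Ugt2b37 and Ugt2b38 in the same cluster, and its human counterpart conjugates bile acids. It had 23 reads in the SRSF2-/- library and 635 in the WT library, or 0.414 and 11.3 FPKM. That was 27.3-fold lower (18.0 to 43.4), with 26 genes of lower log2 ratio among those tested. Next to it Ugt2b38 stood at 1.14 FPKM in the SRSF2-/- library and 2.81 FPKM in the WT library, 2.47-fold lower (1.80 to 3.43) as a plain ratio but short of the rule with a log2 ratio of -0.83. Ugt2b37 had 1 read and 5 reads, Ugt2a1 and Ugt2a2 had 0 reads in either library, and these 3 genes fell under the filter. Ugt2b34, with the highest ratio, lies at one end of the row of expressed genes, and Ugt2a3, with the lowest, near the other.

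Of 8 tested UGT genes outside the set, 7 of them at the Ugt1a locus, 0 met the size rule in either direction, and 6 were at least 2-fold lower after centring. Their median log2 ratio was -0.60. The 7 Ugt1a genes share exons with Ugt1a1, so these values are not separate from it.

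**Figure D3:**
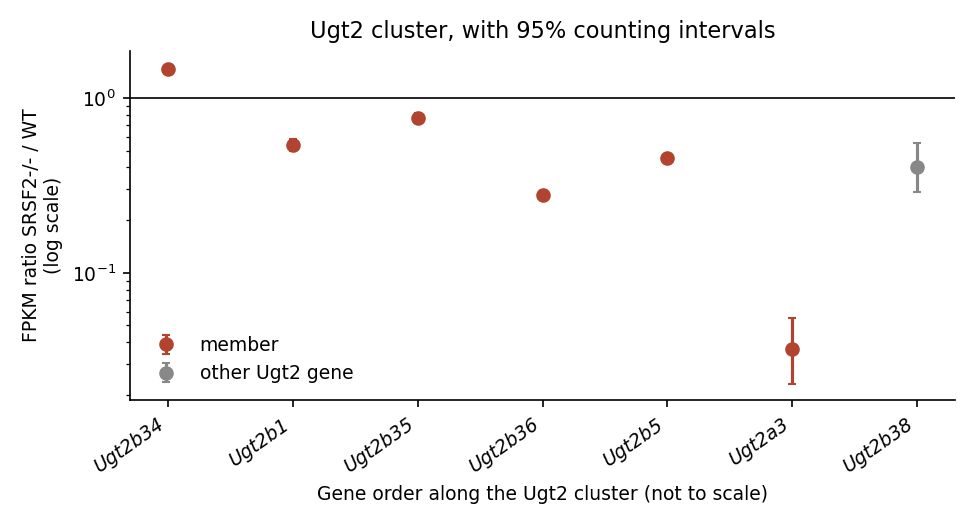
Ratio of FPKM, SRSF2-/- over WT, on a log axis for the 7 Ugt2 genes with at least 1 FPKM in either library, in their order along the cluster. Bars are 95% counting intervals of the ratio. The ratio runs between 0.0367 for Ugt2a3 and 1.46 for Ugt2b34.

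Both Ugt3a genes, on chromosome 15, were far lower in the SRSF2-/- library. Ugt3a2 had 109 reads and 1.87 FPKM in the SRSF2-/- library, against 3658 reads and 61.9 FPKM in the WT library. Its log2 ratio of -4.46 was undercut by 4 of the 12477 genes tested, and the SRSF2-/- library held 3.02% of the WT value (2.47 to 3.65%). Ugt3a1 had 43 reads and 0.742 FPKM in the SRSF2-/- library, against 412 reads and 6.90 FPKM in the WT library, 9.31-fold lower (6.79 to 13.1). The plain ratios of this pair differed beyond counting error, 0.0302 (0.0247 to 0.0365) for Ugt3a2 and 0.107 (0.0766 to 0.147) for Ugt3a1. Their coding sequences are 93.3% identical, the closest pair of members, and 8.55% of the 50-base words of the Ugt3a2 transcript also stand in that of Ugt3a1. How such reads were assigned is not stated. Together the pair summed to 2.61 FPKM in the SRSF2-/- library and 68.8 FPKM in the WT library.

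**Figure D4:**
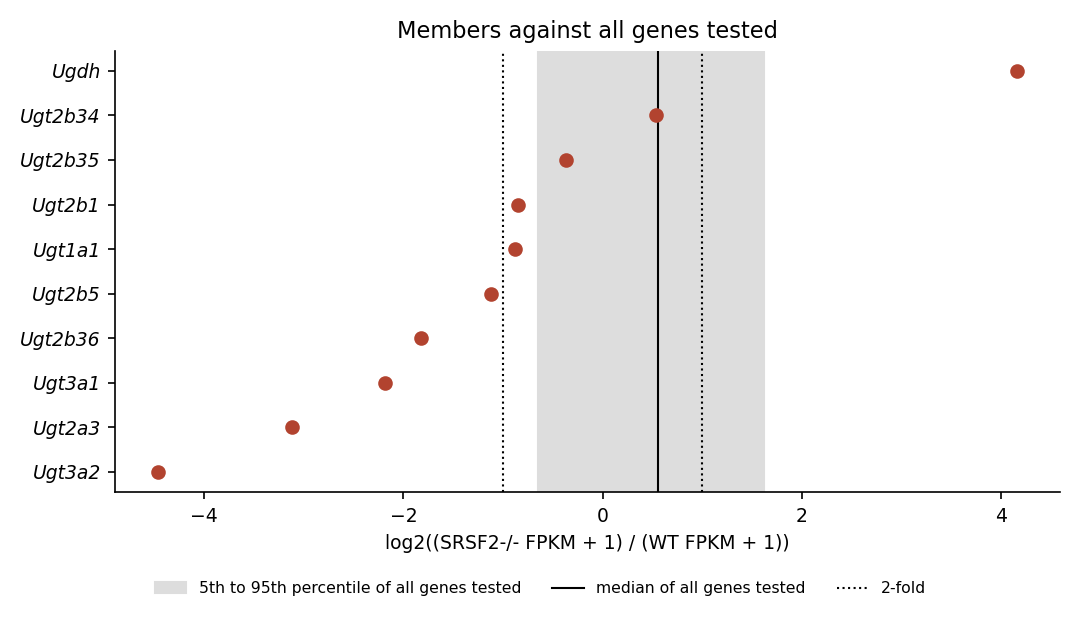
The log2((SRSF2-/- FPKM + 1) / (WT FPKM + 1)) of each member, with the median of all 12477 genes tested (0.55), the span between their 5th and 95th percentiles and the 2-fold lines. Ugt2b34 lies on the median of all genes, Ugt2b35 lies inside the span, and the other 8 members lie outside it.

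Sequence sharing among the other members was small. Coding sequences of the 5 Ugt2b members were between 72.1% identical, for Ugt2b34 and Ugt2b35, and 88.6% identical, for Ugt2b5 and Ugt2b36. Of the 50-base words in the transcripts of Ugt2b1, Ugt2b35 and Ugdh, 0% stood in another transcript of the set compared. For Ugt2b36 and Ugt2b34 the share was 0.326% and 2.07%, and for Ugt2a3 it was 2.998%. Ugt2b5 is the exception, since 34.8% of its words stand in Ugt2b38 and 15.5% in Ugt2b37. Both of those genes had far fewer reads than Ugt2b5, which had 1764 in the SRSF2-/- library and 3939 in the WT library, against 56 and 141 for Ugt2b38. The Ugt2 and Ugt1a1 transcripts annotated in GENCODE have 6 and 5 exons, those of Ugt3a1 and Ugt3a2 have 7, and that of Ugdh has 12. Levels per accession do not show which exons were joined.

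The members' order by level differed between the libraries. In the SRSF2-/- library it ran Ugt2b34, Ugdh, Ugt1a1, Ugt2b36, Ugt2b5, Ugt2b35, Ugt2b1, Ugt3a2, Ugt3a1 and Ugt2a3. The counting intervals of Ugt1a1 (37.1 to 39.7 FPKM) and Ugt2b36 (35.5 to 38.9 FPKM) overlapped there, as did those of Ugt2b36 and Ugt2b5, and of Ugt3a1 and Ugt2a3. In the WT library the order was Ugt2b36, Ugt2b5, Ugt2b34, Ugt1a1, Ugt3a2, Ugt2b1, Ugt2b35, Ugt2a3, Ugt3a1 and Ugdh. Ugt2b34 (70.7 to 74.5 FPKM) and Ugt1a1 (69.9 to 73.5 FPKM) were the neighbours that overlapped in it. Counting intervals understate the spread between animals, which was not measured.

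The 9 UGT members summed to 253 FPKM in the SRSF2-/- library and 488 FPKM in the WT library, a ratio of 0.519 (0.509 to 0.528). Within that sum the make-up changed. Ugt2b34 made up 41.8% of it in the SRSF2-/- library and 14.9% in the WT library. Ugt2b36 made up 14.7% and 27.3%, and Ugt3a2 0.736% and 12.7%, in the SRSF2-/- and WT libraries. The share of Ugt1a1 was close in both, at 15.2% and 14.7%.

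**Figure D5:**
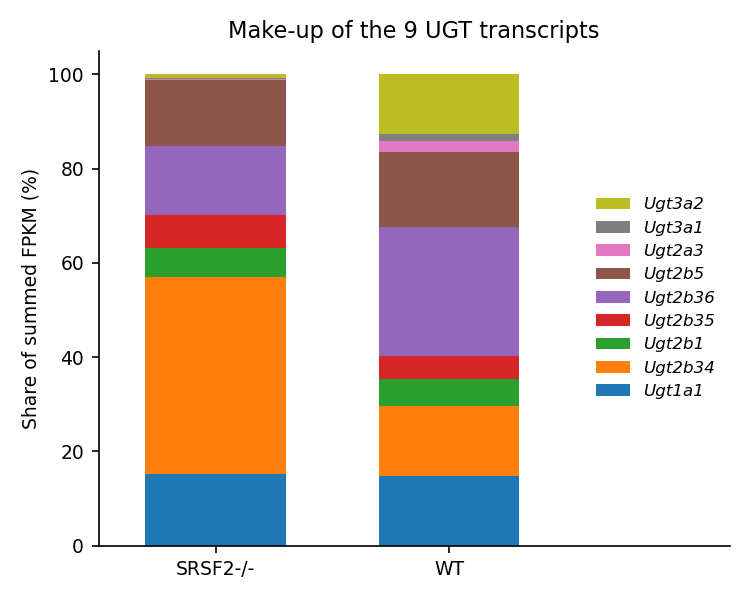
Share of each UGT member in the summed FPKM of the 9, as stacked bars for the SRSF2-/- library on the left and the WT library on the right. Ugt2b34 takes 41.8% and 14.9%, and Ugt3a2 takes 0.736% and 12.7%.

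Markers of hepatocytes also had a lower sum in the SRSF2-/- library. The 10 markers, Alb among them, summed to 40293 FPKM in the SRSF2-/- library and 80934 FPKM in the WT library, a ratio of 0.498, with 3 at least 2-fold lower and 1 higher and a median log2 ratio of -0.66. Alb alone, at 25492 and 50399 FPKM, made up most of both sums. Ttr, Fgb and Serpina1a were the 3 lower, and Tat the 1 higher, at 386 and 122 FPKM. Cps1 and Pck1 each had a log2 ratio of 0.22. After centring 7 of these 10 markers were at least 2-fold lower and 1 higher, against 6.66% and 5.67% of all genes, the same counts as for the 10 members. In bulk liver, fewer cells of a type and less RNA per cell cannot be told apart. Of 5 bile duct markers tested 3 were at least 2-fold higher, of 4 macrophage markers 1, of 7 stellate cell markers 4, and of 6 endothelial and 4 erythroid markers 0, with none lower, beside 19.2% of all genes higher. After centring 1 bile duct marker was at least 2-fold higher and 0 of the macrophage, stellate cell, endothelial and erythroid markers were, while 2 erythroid markers were at least 2-fold lower. Bile duct markers summed to 69.2 and 33.9 FPKM, 4 macrophage markers to 289 and 130 FPKM, 7 stellate cell markers to 204 and 95.7 FPKM, 6 endothelial markers to 127 and 108 FPKM, and 6 erythroid markers to 237 and 415 FPKM, in the SRSF2-/- and WT libraries. Of the erythroid markers, Hbb-b1 was listed at 0 reads in both. The part of these cell types, and of the pancreas and muscle transcripts, in the UGT values was not tested. Of 4 fetal liver markers 2 were at least 2-fold higher and 1 lower. Afp, the fetal plasma protein gene, stood at 7035 FPKM in the SRSF2-/- library and 239 FPKM in the WT library, while Igf2 stood at 173 and 811 FPKM.

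Windows of 250 bases before to 50 after the start were searched on both strands for 5 short motifs. The core of the antioxidant response element bound by NRF2, TGACNNNGC, matched in 12.4% of all 32851 RefSeq promoters and, among the members, in that of Ugdh. It matched there on the gene's strand, 132 bases before the start, and on the other strand, 94 bases before. The xenobiotic response element core bound by the aryl hydrocarbon receptor, GCGTG, matched in 32.4% of promoters and again in Ugdh alone among the members, at 3 places, of which the match 94 bases before the start lies inside the second antioxidant response element match. The Ugdh window is 71.0% G and C, and those of the other members lie between 31.7% (Ugt2a3) and 45.3% (Ugt1a1). The part of this base make-up in the Ugdh matches was not tested. The HNF1 site, GTTAATNAT, matched in 0.801% of promoters and in that of Ugt1a1. A C/EBP site, TTGCNNAA, matched in 10.8% of promoters and in 4 members, Ugt2a3, Ugt2b1, Ugt2b5 and Ugt2b36. The match began 77 bases before the start in Ugt2b36 and 74 before in Ugt2b5. In Ugt2b1 it began 4 bases before the start and ran across it, and in Ugt2a3 it lay 5 bases after the start. TATAAA matched in 13.6% of promoters and in Ugt3a1. Ugt2b34 and Ugt2b35 held none of the 5 in these windows. A match is a run of letters and no evidence of binding.

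The promoters of Ugt2b5 and Ugt2b36 also share the longest identical run among the 36 pairs of member promoters, 24 bases that begin 28 and 31 bases before their starts, where the median over pairs was 8. The coding sequences of this pair are also the most alike among the Ugt2b members, at 88.6% identical. Bases after the annotated Ugt2b5 start were not found in the Ugt2b5 transcript compared here, so its distance holds for the RefSeq start alone. Whether the run has a part in the levels of either gene was not tested.
Ugt2b5 and Ugt2b36, shared run: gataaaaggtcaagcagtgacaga

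Genes around the UGT reaction were read from lists, as counts beside the 2.95% and 19.2% of all genes. Genes for the supply and transport of UDP-glucuronate are given by their values. Entpd5, which hydrolyses the UDP left in the lumen by glycosyl transfer, stood at 39.8 FPKM in the SRSF2-/- library and 11.7 FPKM in the WT library, 3.40-fold higher (3.22 to 3.59). Ugp2, which makes UDP-glucose, was at 75.0 and 49.8 FPKM and Slc35d1, which carries UDP-glucuronate into the endoplasmic reticulum, at 15.7 and 9.89 FPKM, in the SRSF2-/- and WT libraries. Neither met the size rule, and their log2 ratios of 0.58 and 0.61 lay near the median of all genes.

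Genes of the other routes of UDP-glucuronate and free glucuronate were mostly within 2-fold. Of 7 genes of the glucuronate, ascorbate and xylulose pathway, 1 was at least 2-fold higher and 1 lower, both as deposited and after centring. Miox, which makes glucuronate from myo-inositol, stood at 27.2 FPKM in the SRSF2-/- library and 5.98 FPKM in the WT library. Rgn, the gluconolactonase of ascorbate synthesis, stood at 40.6 and 189 FPKM, 4.67-fold lower (4.43 to 4.92). Akr1a1, which reduces glucuronate, was at 309.6 and 183 FPKM, with a log2 ratio of 0.76. Of 9 tested genes that use UDP-glucuronate for glycosaminoglycans or UDP-xylose, Chpf, a chondroitin polymerising factor, was the gene at least 2-fold higher, at 3.74 and 0.944 FPKM, and none was lower. After centring 0 of the 9 met the rule. Gusb, the lysosomal glucuronidase that removes glucuronate again, stood at 14.6 FPKM in the SRSF2-/- library and 8.20 FPKM in the WT library, short of the size rule.

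Among genes of heme breakdown and carriers of conjugates, some were higher in the SRSF2-/- library and others were short of the size rule or lower. Hmox1, which opens heme, stood at 100.2 FPKM in the SRSF2-/- library and 29.5 FPKM in the WT library, and Blvrb, a biliverdin reductase, at 201 and 59.7 FPKM. These were 2 of the 4 genes of the heme and bilirubin list past 2-fold, with 0 lower. Blvra, the other biliverdin reductase gene of the list, was at 7.83 FPKM in the SRSF2-/- library and 5.59 FPKM in the WT library. Its log2 ratio of 0.42 was short of the rule, and was -0.13 relative to the median of all genes. Of 8 tested carriers of conjugates, 3 were at least 2-fold higher and 1 lower. Abcc3, which exports glucuronides to the blood, stood at 25.8 FPKM in the SRSF2-/- library and 8.08 FPKM in the WT library, a ratio of 3.19 (2.98 to 3.42). Abcc4, also of the basolateral membrane, stood at 4.92 and 0.908 FPKM. Abcc2, the canalicular exporter of bilirubin glucuronide, was at 50.2 FPKM in the SRSF2-/- library and 37.7 FPKM in the WT library, short of the rule. Slco1a4, an uptake carrier of organic anions, was lower, at 3.87 and 15.0 FPKM, and Slco1a1, another uptake carrier, was higher, at 2.94 FPKM in the SRSF2-/- library and 0.443 FPKM in the WT library. After centring 2 of the 8 were at least 2-fold higher and 1 lower.

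Among 13 tested genes of other conjugation reactions, 3 were at least 2-fold lower and 1 higher, with a median log2 ratio of -0.20. After centring 6 were at least 2-fold lower and 0 higher. Baat, which joins bile acids to amino acids, stood at 6.98 FPKM in the SRSF2-/- library and 20.8 FPKM in the WT library, and Glyat, a glycine N-acyltransferase, at 26.8 and 68.7 FPKM. The sulfotransferase gene Sult1c2 was lower, at 4.92 and 14.9 FPKM, and Sult1a1, of the same family, higher, at 361 and 152 FPKM, though with a log2 ratio of 0.69 relative to all genes it no longer met the rule after centring. The UGT members had a median of -1.12 beside this -0.20. No test of that difference was possible with 1 library per genotype.

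Regulators of UGT genes were mostly within 2-fold, with 17 of 20 inside the size rule, 2 higher and 1 lower. After centring 1 was at least 2-fold higher and 4 lower. Nfe2l2, which encodes NRF2, stood at 79.7 FPKM in the SRSF2-/- library and 17.1 FPKM in the WT library, 4.66-fold higher (4.36 to 4.97). Nr1i2, the pregnane X receptor gene, was at 34.2 and 15.1 FPKM. Nr1i3, the constitutive androstane receptor gene, was lower, at 9.53 FPKM in the SRSF2-/- library and 23.9 FPKM in the WT library. Hnf4a, the most abundant of the list and a regulator of many hepatocyte genes, stood at 93.2 and 90.6 FPKM. Of 15 tested NRF2 targets, 10 were at least 2-fold higher and 0 lower, with a median log2 ratio of 1.73, and 8 were higher after centring. Gstm3, a glutathione S-transferase gene, stood at 129 FPKM in the SRSF2-/- library and 5.47 FPKM in the WT library, 23.6-fold higher (20.3 to 27.7), a ratio close to that of Ugdh. Srxn1, the sulfiredoxin gene, stood at 74.4 and 5.84 FPKM, and Gstp1, another transferase gene of this kind, at 2382 and 199 FPKM. Other targets on the list were nearly level. Gclc was at 42.5 and 41.8 FPKM and Gclm at 45.3 and 43.7 FPKM, in the SRSF2-/- and WT libraries. Relative to the median of all genes their log2 ratios were -0.53 and -0.50. The list's share past 2-fold stands beside 19.2% of all genes. Whether NRF2 had a part in the Ugdh value was not tested.

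Likeness to a member was measured as the Euclidean distance over log2(FPKM + 1) in the 2 libraries, for the members past 2-fold. Nearest to Ugdh were Acot2, an acyl-CoA thioesterase gene, at 63.3 FPKM in the SRSF2-/- library and 2.71 FPKM in the WT library, then Gpx3 and Fdps. Nearest to Ugt3a2 were Slc22a7, which encodes a carrier of organic anions, with 2.09 FPKM in the SRSF2-/- library and 52.8 FPKM in the WT library, Ces1b and Sult2a5. For Ugt2b36 these were Slc27a5, a bile acid and fatty acid ligase gene, at 37.2 and 131 FPKM, Agxt and Sardh, and for Ugt2b5 they were C1ra, Aldh6a1 and Pecr. Ugt2a3 lay nearest to Pde6c, Prok1 and Slc22a26, and Ugt3a1 nearest to Mir6986, Raet1d and Fitm1, at distances of up to 0.502. Few reads stand behind some of these. Mir6986 had 1 read and 12 reads, and Prok1 2 and 1282 reads, in the SRSF2-/- and WT libraries. With 2 libraries a pattern is no more than a pair of levels.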

How the data were processed

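Liver RNA was measured in 1 SRSF2-/- and 1 WT library, as the labels name them. Bowtie 0.12.2 and build mm9 are named in the submitters' processing notes. The sources used here do not give the counting program, the annotation release or the handling of shared reads and of strand. For each RefSeq accession the deposited tables give reads (a count) and FPKM, per the file headers. The counts are whole numbers, and the FPKM are the authors' normalization. Symbols came from RefSeq GRCm38.p6 and GENCODE tables, used for names and gene order, for 23419 of 26449 accessions. Reads and FPKM were summed per gene.

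Ratios are SRSF2-/- over WT. The log2 ratio used a pseudocount of 1, which understates changes of low genes, and genes needed 1 FPKM in either library. No p-value was computed, since neither genotype has a replicate. The interval of the read ratio was scaled to the FPKM ratio of each gene. Reads of amplified libraries are not independent molecules, so intervals cover counting error only. Named genes were the members, Srsf2, the nearest genes, and from each pathway list the 3 largest absolute log2 ratios and the most abundant gene. Marker genes, Gusb, Slco1a1, Blvra, Gclc, Gclm, Ugt1a and Ugt2 genes beyond that rule were named after their values were seen. Members and lists were chosen with earlier results of these data known. Alternatives were pseudocount, filter, scaling, quantity, accession, size rule and summing of Ugt2b genes. A subtraction of shared Ugt1a reads was chosen after seeing the data. Coding sequences came from GENCODE M21 and promoters from RefSeq. No protein sequence was used. The summary of the list on UDP-glucuronate supply is not reported here. The computation was tested on simulated libraries. Python 3.11.15 with numpy 2.4.6, pandas 2.3.3, scipy 1.17.1, matplotlib 3.10.9 and Biopython 1.88 was used.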

Additional observations from a re-analysis of the deposited data

How the results depend on the processing

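The count of 5 members at least 2-fold lower became 7 after centring, after rescaling without the 20 most abundant genes and with a 1.5-fold rule. It became 3 with a 4-fold rule (Ugt2a3, Ugt3a1 and Ugt3a2), which is stricter by construction, and 3 of 6 when the Ugt2b members were summed as 1 gene. It stayed at 5 in the other settings run, and the count of 1 member higher (Ugdh) stayed at 1 in all of them. The alternatives of filter and of RefSeq entry could not change these counts, since every member passed each filter and had 1 entry. The members' median of -1.0 was -1.55 after centring, -1.33 without the 20 most abundant genes and -1.53 with Ugt2b summed. Ugt2b34 had 0.54 as deposited and -0.01 after centring, while the other 9 members kept their sign in every setting that gave them a value. Ugt2a3 ran between -4.47 with a pseudocount of 0.1 and -1.59 with one of 5. No paired analysis was possible because each genotype has 1 library. Among the members, Ugt2a3 and Ugt3a1 had the fewest reads in the SRSF2-/- library, at 23 and 43.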

Other observations

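The Ugt1a accessions with nearly level reads invite a second reading of the locus, chosen after its values were seen. The lowest accession, Ugt1a10, had 527 reads in the SRSF2-/- library and 870 in the WT library. Above that level Ugt1a1 kept 2723 and 5267 reads, a ratio of 0.523 after scaling for FPKM per read, close to the 0.536 of the deposited values. Ugt1a6b kept 465 ± 39.0 reads in the SRSF2-/- library and 353 ± 45.7 in the WT library (counting SD), and Ugt1a6a kept 317 ± 37.0 and 268 ± 44.8. As deposited, Ugt1a6a and Ugt1a6b had lower FPKM in the SRSF2-/- library, at 9.75 and 16.5, against 13.0 and 20.1 in the WT library. The direction of these accessions thus depends on whether the level row is counted as theirs. The differences above it were 112 reads with a counting SD of 60.1 for Ugt1a6b and 49 reads with a counting SD of 58.1 for Ugt1a6a. These counting SDs take the reads of each accession and of Ugt1a10 as separate. If the level row is the same reads counted again for each accession, the SDs are too wide.

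Within the pair of neighbours Ugt3a1 and Ugt3a2, the more abundant gene of the WT library had the lower ratio, 0.0302 against 0.107. Among the 6 Ugt2 members the most abundant gene of the WT library, Ugt2b36, did not have the lowest ratio, which was that of Ugt2a3, at 11.3 FPKM in the WT library.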
